A study of Mus musculus with 15 samples.

Results

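The genes described here are 48 protein-coding genes that copy DNA or open the way from G1 into S phase. They were taken as the rows of the count table whose gene symbol was on a fixed list of replication and G1/S genes and whose biotype was protein coding. All 48 were found among the 49585 genes of the table, and all 48 passed the filter on low counts in every comparison. RNA was measured in 5 groups of 3 libraries, all labelled as strain C57BL/6. The 005 cells are a mouse glioma stem cell line kept in serum-free stem cell medium. TDECs, tumor-derived endothelial cells, were 005 cells moved to endothelial medium (EGM-2) at 1% O2 and collected on day 2 or day 5, without drug. TDEC sertraline were day 5 TDECs given 5 µM sertraline, a serotonin reuptake inhibitor, and collected 24 h later. MBMECs are purchased mouse brain microvascular endothelial cells grown in another serum-containing medium, with no oxygen level given. The untreated day 5 libraries carry no day in their labels and were taken as day 5 from the methods of the study, so treated cells may be 1 day older. Titles of the treated and MBMEC libraries lack a prefix that the other titles share. What it marks is not stated, so a batch cannot be told apart from these groups. The 005 line is a single line, and separate cultures are stated only for untreated day 5 and sertraline TDECs, so elsewhere p-values may measure technical spread.

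Replication begins in G1, when the origin recognition complex, Cdc6 and Cdt1 load the ring of Mcm2 to Mcm7 onto origins. S-phase kinases then turn this ring into a working helicase with Cdc45 and the GINS complex, and polymerases, clamp, clamp loader and ligase copy the strands. Many of these genes are targets of E2F transcription factors, which the Rb protein holds back until cyclin D and cyclin E kinases phosphorylate it. Glioma stem cells divide in culture, and brain endothelial cells rest in the adult brain but divide in culture.

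E2F factors bind short words in promoters, so the promoters of the genes were read for them. The words TTTCCCGC, TTTGGCGC, TTTCGCGC and TTTGCCGC were searched on both strands of RefSeq promoter windows (GRCm38.p6, 250 bases before to 50 after the start), and overlapping matches were each kept. A window was given for 38 of the 48 genes. Of these, 16 held at least 1 of the words (42.1%), against 2.6% of the 27025 genes with a window. Counted by window, the shares were 34.8% of 46 windows and 2.3% of all 32851 windows. The word TTTGAA of the cell cycle homology region stood in 15.8% of the 38 genes and in 20.2% of all genes. The 170 bases before the start are printed for 6 of the genes that hold a word there and whose RNA is described below. They are also printed for Rrm2, the gene with the deepest fall, which held none. Pola1 and Mcm7 hold a word there too and are not printed. Capitals mark the E2F words on either strand, and Mcm5 and Mcm6 each hold 2 words that overlap on opposite strands.
Mcm5 (chr8:75109339-75109508, plus strand): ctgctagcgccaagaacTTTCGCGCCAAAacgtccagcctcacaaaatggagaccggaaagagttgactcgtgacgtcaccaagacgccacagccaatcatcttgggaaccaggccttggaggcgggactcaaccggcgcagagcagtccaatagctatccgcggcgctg
Mcm6 (chr1:128359706-128359875, minus strand): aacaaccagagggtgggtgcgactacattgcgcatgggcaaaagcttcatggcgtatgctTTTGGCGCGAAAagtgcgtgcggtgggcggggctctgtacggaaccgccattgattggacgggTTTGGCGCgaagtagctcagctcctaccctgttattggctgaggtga
Orc1 (chr4:108579284-108579453, plus strand): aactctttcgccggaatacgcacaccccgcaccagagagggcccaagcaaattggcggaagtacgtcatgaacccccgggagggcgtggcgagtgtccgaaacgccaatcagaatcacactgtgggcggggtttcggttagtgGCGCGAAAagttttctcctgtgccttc
Cdc6 (chr11:98907981-98908150, plus strand): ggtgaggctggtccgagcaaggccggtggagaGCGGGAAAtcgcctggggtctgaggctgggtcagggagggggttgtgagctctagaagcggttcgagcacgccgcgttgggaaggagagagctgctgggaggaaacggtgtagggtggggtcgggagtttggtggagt
Gins3 (chr8:95633389-95633558, plus strand): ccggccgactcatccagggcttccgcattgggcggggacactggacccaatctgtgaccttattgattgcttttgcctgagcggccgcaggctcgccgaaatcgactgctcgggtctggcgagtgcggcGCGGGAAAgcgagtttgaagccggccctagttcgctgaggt
Rfc3 (chr5:151651209-151651378, minus strand): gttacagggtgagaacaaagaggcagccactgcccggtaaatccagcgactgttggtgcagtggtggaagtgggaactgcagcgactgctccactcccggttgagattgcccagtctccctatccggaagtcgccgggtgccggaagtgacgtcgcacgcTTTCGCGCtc
Rrm2 (chr12:24708084-24708253, plus strand): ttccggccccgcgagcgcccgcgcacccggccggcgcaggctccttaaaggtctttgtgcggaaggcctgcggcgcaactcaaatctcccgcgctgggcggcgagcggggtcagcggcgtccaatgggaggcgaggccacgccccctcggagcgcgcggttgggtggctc
A match is a run of letters and was not tested as a binding site. On day 5 against 005, the median log2 fold change was -2.8 over the 16 genes with a word (-3.97 to -1.13) and -2.14 over the 22 without one (-5.52 to -0.58), so both sets spanned small and large falls. Windows for Ccne2, Gins1, Gins2, Gins4, Gmnn, Mcm4, Pole, Prim2, Rfc2 and Tipin were not used here.

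Libraries held 11283680 to 17093061 counts. The 48 genes took 0.424% to 0.494% of counts in 005, 0.465% to 0.494% on day 2, 0.0961% to 0.0989% on day 5, 0.107% to 0.111% with sertraline and 0.445% to 0.469% in MBMECs. In 005, replicate 3 stood apart from the other two libraries and was lowest for 41 of the 48 genes. On day 2, replicate 3 stood apart and was highest for 35 of 48, and sertraline replicate 2 stood apart too. TDECs held little endothelial marker RNA. The sum of 15 markers was 10.37 to 18.41 CPM on day 2 and 10.75 to 12.82 CPM on day 5. It was 10.13 to 14.19 CPM with sertraline, 8.844 to 12.98 CPM in 005 and 9284 to 9508 CPM in MBMECs. On day 5, 10 of the 15 were under 1 CPM and 2, Tie1 and Sox17, were at 0. Kdr was higher than in 005 on day 2 (log2 2.13 ± 0.44 SE) and day 5 (1.72 ± 0.29). Pecam1 and Vwf were lower on day 5 against 005 (-0.9 ± 0.35 and -0.97 ± 0.27). The study reported CD31 and CD34 staining and tube formation for TDECs, which were not measured here. From its RNA data, it also reported blood vessel morphogenesis as the top term for genes higher in day 5 TDECs than in 005. By Western blot, it found no VEGFR-2, the product of Kdr, in TDECs. The 11 neural and glioma stem cell markers summed to 3557 to 3661 CPM in 005, 2144 to 2711 CPM on day 2 and 1783 to 1839 CPM on day 5. The share of mitochondrial RNA was 2.16% to 2.7% in 005, 2.1% to 2.35% on day 2, 3.48% to 3.6% on day 5, 2.47% to 2.62% with sertraline and 1.41% to 1.62% in MBMECs. The part of these differences in the results was not tested.

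Replication RNA stayed high on day 2 and was low on day 5. Counts were expressed as CPM, counts scaled to library size, with factors from the trimmed mean of M values (TMM) over the 15 libraries. Genes were called at an adjusted p under 0.05 (edgeR quasi-likelihood test, Benjamini-Hochberg over all genes tested) with more than a 2-fold change. On day 2 against 005, 1 of 48 was called higher, where 5.35% of all genes tested were, and 0 were called lower, where 4.48% were. DESeq2 gave the same counts, and 15 genes were higher and 7 lower at an unadjusted p under 0.05 with edgeR. Without the fold threshold, 11 of 48 were higher on day 2 at an adjusted p under 0.05, against 18.8% of all genes, and 7 were lower, against 20.2%. The 7 became 4 without 005 replicate 1, 005 replicate 2 or day 2 replicate 1, and 11 without the libraries that stand apart (14 higher). On day 5 against day 2, 45 of 48 fell, against 9.35% of all genes, and 0 were called higher (11.1% of all genes, 0 by DESeq2 and 0 at an unadjusted p under 0.05). On day 5 against 005, 42 fell, against 10.4% of all genes, with a median log2 fold change of -2.44 for the 48 genes and -0.01 for all genes. None was called higher on day 5 against 005 (0 by either tool and 0 at an unadjusted p under 0.05), where 13.1% of all genes were. These comparisons share libraries. The change from day 2 to day 5 minus the change from 005 to day 2 was tested directly, and 46 of 48 were called lower (15% of all genes), with a median of -2.43. Gins4 and E2f1 were not called there, at -0.96 ± 0.14 and -0.90 ± 0.17 (SE). Gins4 became called without 005 replicate 1 or day 2 replicate 2, and E2f1 without day 2 replicate 1. In bulk RNA, fewer cycling cells and less RNA per cell cannot be told apart.

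**Figure D1:**
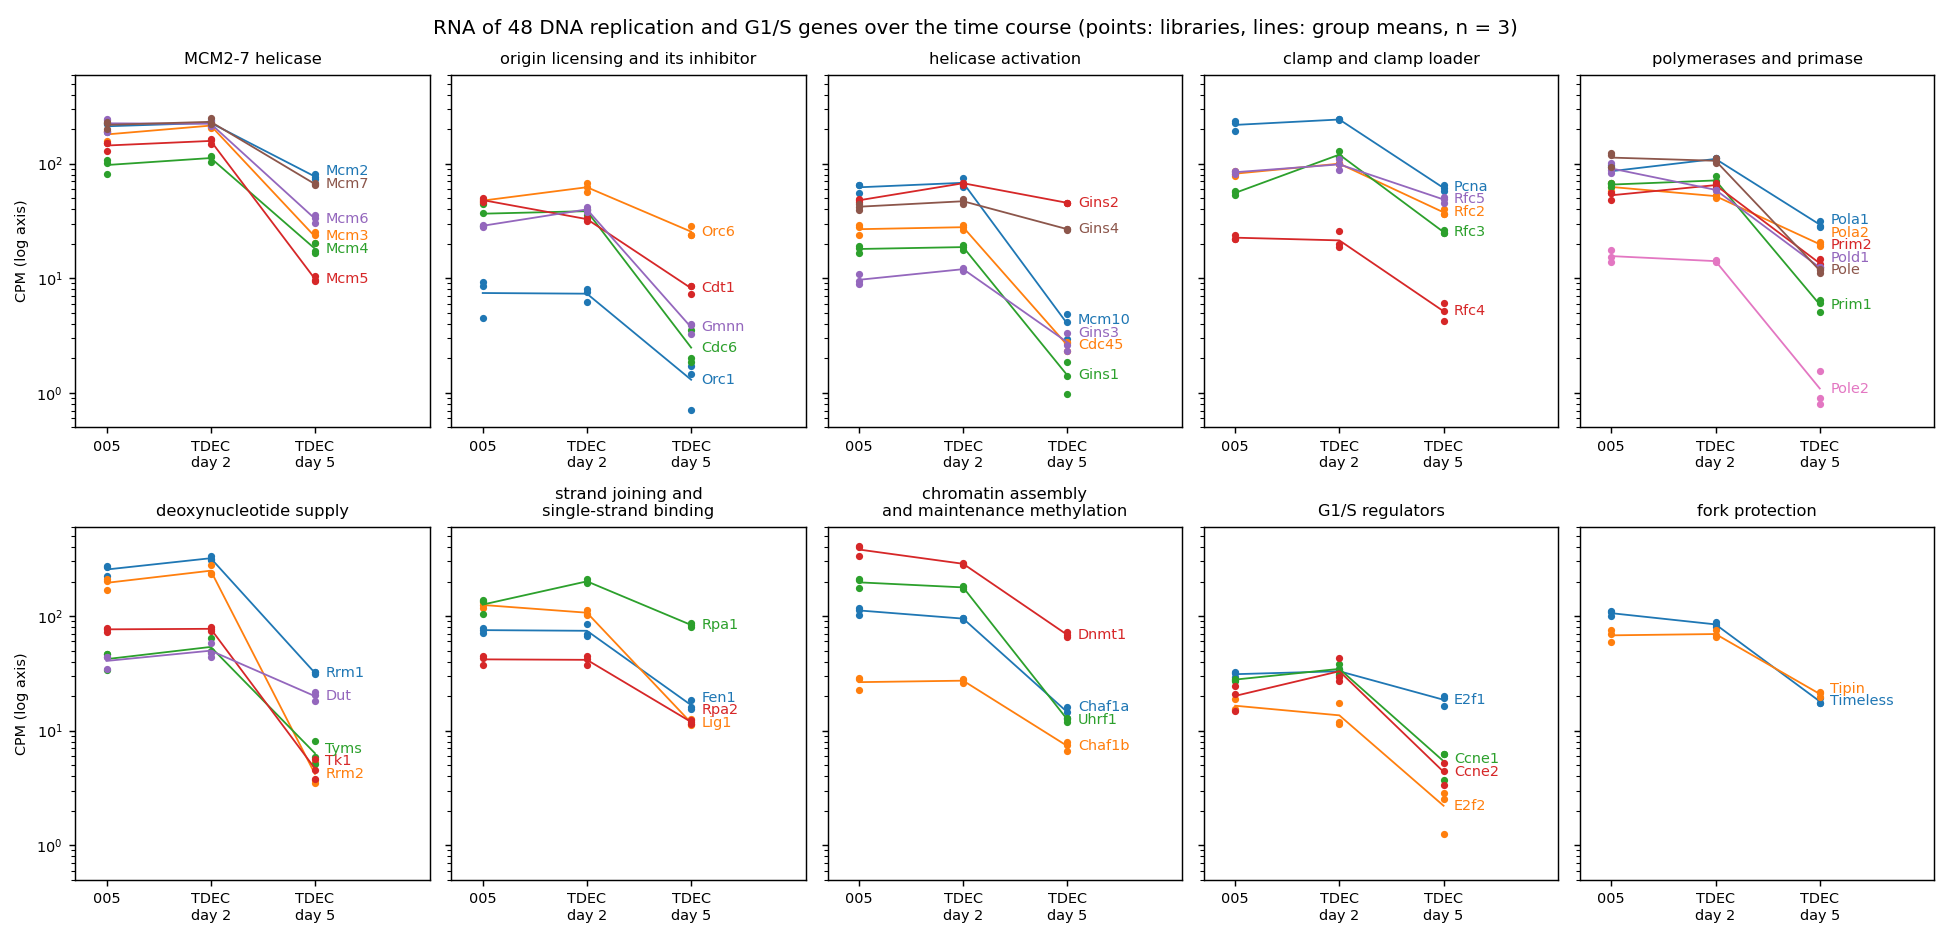
CPM on a log axis for each of the 48 genes in 005 cells and in TDECs on day 2 and day 5, in 10 panels by role, with points for the 3 libraries of each group and lines through group means. Day 2 means run from 65.1% of the 005 level for Pold1 to 216% for Rfc3. All lines drop from day 2 to day 5, steeply for Rrm2, while Gins2 ends at 94.8% of its 005 level.

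The helicase ring lost RNA unevenly across its subunits. Mcm5, one of its 6 subunits, had 153, 151 and 129 CPM in 005, 150, 161 and 164 CPM on day 2, and 9.7, 10.4 and 9.44 CPM on day 5. Mcm2 had 223, 226 and 188 CPM in 005, 214, 223 and 243 CPM on day 2, and 73.4, 81.9 and 76.2 CPM on day 5. In both genes the 005 and day 2 libraries overlapped and every day 5 library lay far below them. Mcm5 fell 14.5-fold on day 5 against 005 (log2 -3.86 ± 0.10 SE, adjusted p = 1.3e-11, edgeR), to 6.84% of its 005 level, and Mcm2 fell 2.73-fold (-1.45 ± 0.08, adjusted p = 1.2e-08), to 36.4%. The other subunits stood between them, at 12.8% for Mcm3, 14.7% for Mcm6, 18.6% for Mcm4 and 30.4% for Mcm7. No subunit was past an adjusted p of 0.05 on day 2 against 005, where the group's log2 changes ran from -0.03 to 0.23.

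The factors that load the ring also differed. Cdc6, the ATPase that brings the ring to origins, had 37.3, 44.1 and 28.5 CPM in 005, 35.7, 39.4 and 40.5 CPM on day 2, and 1.87, 3.53 and 2.03 CPM on day 5. Orc6, the smallest subunit of the origin recognition complex, had 48.2, 49.2 and 45.4 CPM in 005, 56.4, 62.5 and 68 CPM on day 2, and 23.8, 24 and 28.7 CPM on day 5. Both were lowest in all 3 day 5 libraries, and Orc6 was highest in all 3 day 2 libraries. Cdc6 fell by 3.86 on the log2 scale on day 5 against 005 (SE 0.23, adjusted p = 1.8e-08, edgeR), while Orc6 at -0.89 ± 0.09 was short of a 2-fold change (adjusted p = 3e-06). Orc1, the ATPase subunit that is itself cell cycle regulated, fell by 2.48 ± 0.34. The subunits outside the 48 were not called, at 0.10 ± 0.08 for Orc2, 0.15 ± 0.10 for Orc3, -0.14 ± 0.09 for Orc4 and -0.26 ± 0.08 for Orc5. Cdt1 and geminin (Gmnn), the loader and its inhibitor, went different ways on day 2. Cdt1 was at 68.2% and Gmnn at 139% of the 005 level, with log2 changes of -0.57 ± 0.09 (adjusted p = 0.00041) and 0.46 ± 0.09 (adjusted p = 0.0024), both under 2-fold. On day 5 both were called lower than in 005, at -2.54 ± 0.10 for Cdt1 and -2.93 ± 0.12 for Gmnn.

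The genes that fire the helicase held both extremes of a single complex. Mcm10, which helps activate the loaded helicase, had 65.6, 65.7 and 55.2 CPM in 005, 63, 65.6 and 75.7 CPM on day 2, and 2.94, 4.19 and 4.88 CPM on day 5. Gins2, one of the 4 GINS subunits, had 46.2, 48.3 and 49.2 CPM in 005, 68.4, 68.4 and 65.6 CPM on day 2, and 45.8, 45.1 and 45.4 CPM on day 5. The day 5 libraries of Gins2 lay just under those of 005, while those of Mcm10 lay far below. Mcm10 fell by 3.93 on the log2 scale on day 5 against 005 (SE 0.14, adjusted p = 2.8e-10, edgeR), and Gins2 was at -0.07 ± 0.07 (adjusted p = 0.42). Gins2 was at 94.8% of its 005 level, Gins4 at 63.6%, Gins3 at 28.5% and Gins1 at 7.85%. Of the exonic bases of Gins2, 67.3% lie under exons of Gse1 on the opposite strand (GENCODE M21). Since no source used here says whether counting used strand, reads of this pair cannot be told apart, and Gse1 averaged 60.9 CPM in 005, 95.4 CPM on day 2 and 96.2 CPM on day 5. Cdc45, which completes the active helicase, fell by 3.35 ± 0.15.

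**Figure D2:**
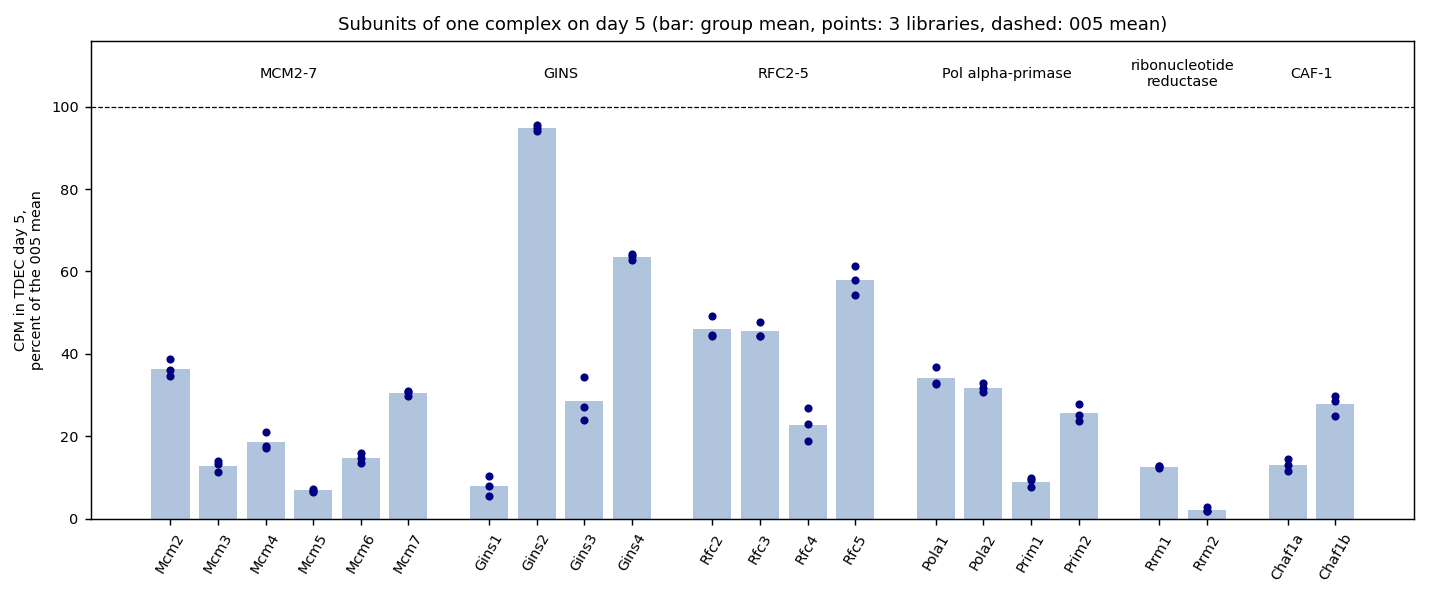
CPM on day 5 as a percent of the 005 mean for the measured subunits of 6 complexes, with bars for group means and points for the 3 day 5 libraries. Bars within a complex differ widely, as for GINS, from 7.85% for Gins1 to 94.8% for Gins2, whose exons overlap Gse1.

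Rfc3 was the 1 gene called on day 2. The clamp loader opens the Pcna ring and closes it on DNA, and Rfc3 is one of its small subunits. Rfc3 had 57.6, 56.3 and 52.8 CPM in 005, 115, 115 and 130 CPM on day 2, and 26.5, 24.6 and 24.7 CPM on day 5. No libraries of the 3 groups overlapped, and day 2 was the highest of them. Rfc3 rose 2.14-fold on day 2 against 005 (log2 1.10 ± 0.09, adjusted p = 3.8e-06, edgeR) and fell 4.72-fold on day 5 against day 2 (-2.24 ± 0.08, adjusted p = 1.2e-09). Its promoter window held 2 E2F words, 1 of which begins at the start and is not in the printed bases. None of the other subunits among the 48 was called on day 2, with 0.27 ± 0.08 for Rfc2, 0.21 ± 0.09 for Rfc5 and -0.09 ± 0.14 for Rfc4. Rfc1, outside the 48, was not called on day 2 either (0.15 ± 0.09). Rfc4 had 22, 24 and 21.8 CPM in 005, 25.8, 19.8 and 18.7 CPM on day 2, and 6.05, 5.17 and 4.23 CPM on day 5. Rfc5 had 86.9, 85.1 and 80.7 CPM in 005, 99.2, 88 and 109 CPM on day 2, and 51.6, 45.6 and 48.8 CPM on day 5. Rfc4 fell by 2.12 ± 0.14 on day 5 against 005, and Rfc5 at -0.78 ± 0.07 was not called. Against day 2 Rfc5 was called at -1.01 ± 0.09, and this call was lost without day 2 replicate 3 (-0.94) or without day 5 replicate 2 (-0.96), and in 1 fit of all 15 libraries. Pcna itself fell by 1.82 ± 0.08 against 005. Per kilobase of exon it was the most abundant of the 48 in 005 (90.8 CPM per kb) and on day 5 (25.6 CPM per kb).

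Among polymerases, the listed genes of the epsilon and delta enzymes of the 2 strands and of the primase-bearing alpha complex were all lower on day 5. Against 005, 7 of 7 listed genes were called lower, where 10.4% of all genes were. Epsilon and delta subunits outside the list differed in the same comparison. Pole3 (-0.1 ± 0.08), Pole4 (0.07 ± 0.07) and Pold2 (-0.83 ± 0.07) were not called. Pold4 was called higher (1.61 ± 0.18) and Pold3 lower (-1.25 ± 0.1). Pole2, an accessory subunit of polymerase epsilon, had 17.5, 15.4 and 13.8 CPM in 005, 14.2, 13.8 and 14.4 CPM on day 2, and 0.801, 1.56 and 0.895 CPM on day 5. Pola1, the catalytic subunit of polymerase alpha, had 97.8, 92.8 and 67.4 CPM in 005, 106, 111 and 112 CPM on day 2, and 28.1, 28.3 and 31.7 CPM on day 5. Day 5 was the lowest group in both, and for Pola1 day 2 was above all 005 libraries. Pole2 fell by 3.81 ± 0.22 on the log2 scale on day 5 against 005 (adjusted p = 1.9e-08, edgeR) and Pola1 by 1.54 ± 0.13 (adjusted p = 4.5e-07). Within the alpha complex, the small primase subunit Prim1 was at 8.97% of its 005 level, the large subunit Prim2 at 25.5%, Pola2 at 31.7% and Pola1 at 34.2%. Pold1, the catalytic subunit of polymerase delta, was lower already on day 2, at 65.1% of its 005 level (-0.63 ± 0.09, adjusted p = 0.00027), though under 2-fold.

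The enzymes that supply deoxynucleotides held the largest fall. Rrm2 (chr12:24708241-24714146, mm10) encodes a small subunit of ribonucleotide reductase, which makes deoxynucleotides and is known for its S-phase expression. It had 203, 212 and 169 CPM in 005, 231, 237 and 278 CPM on day 2, and 3.74, 5.34 and 3.5 CPM on day 5. The highest day 5 library was far below the lowest of the other groups. Rrm2 fell 45.9-fold on day 5 against 005 (log2 -5.52 ± 0.14, adjusted p = 1.4e-11, edgeR), to 2.15%, and its partner Rrm1 fell by 2.99 ± 0.09, to 12.5%. Thymidine kinase Tk1 fell by 4.02 ± 0.12 and thymidylate synthase Tyms by 2.72 ± 0.17. Dut, which removes dUTP, had 43.6, 43.6 and 34.8 CPM in 005, 47.4, 44.1 and 58.4 CPM on day 2, and 21.6, 20.5 and 18 CPM on day 5. Dut lay at the edge of the call at -1.01 ± 0.11 (adjusted p = 7e-06), which was lost without 005 replicate 1 or 2 (-0.96 each) or without day 5 replicate 3 (-0.94), and in 1 fit of all 15 libraries.

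Strand joining, chromatin and fork genes gave the same picture with exceptions. DNA ligase 1 (Lig1) had 133, 124 and 117 CPM in 005, 103, 104 and 113 CPM on day 2, and 11.1, 12.6 and 11.4 CPM on day 5. Rpa1, the large subunit of the single-strand binding protein, had 136, 137 and 105 CPM in 005, 199, 193 and 211 CPM on day 2, and 81, 86.6 and 83.3 CPM on day 5. Lig1 stepped down at each time, while Rpa1 was highest on day 2 in all 3 libraries. On day 5 against 005 Lig1 fell by 3.40 ± 0.09 (adjusted p = 1.4e-11, edgeR), and Rpa1 at -0.58 ± 0.09 was not called (adjusted p = 0.00016). The flap nuclease Fen1 fell by 2.17 ± 0.09, with 84.2% of its exonic bases under antisense exons, and its antisense neighbour Tmem258 was at -0.25 ± 0.08. Uhrf1, which brings the maintenance methylase Dnmt1 to newly copied DNA, had 209, 208 and 176 CPM in 005, 173, 179 and 182 CPM on day 2, and 12.6, 12.9 and 12 CPM on day 5. Chaf1b, a subunit of the histone chaperone CAF-1, had 28.7, 28.1 and 22.6 CPM in 005, 26, 27.7 and 28.1 CPM on day 2, and 6.59, 7.55 and 7.9 CPM on day 5. All day 5 libraries of both were below the rest. Uhrf1 fell by 3.97 ± 0.09 (adjusted p = 9.1e-12), Chaf1b by 1.83 ± 0.13 and Dnmt1 by 2.46 ± 0.08. Chaf1a, the large CAF-1 subunit, fell by 2.93 ± 0.09, with 52.5% of its exonic bases under Ubxn6 (-0.28 ± 0.07). Timeless, of the fork protection pair, had 110, 108 and 99.7 CPM in 005, 88.7, 84.2 and 80.9 CPM on day 2, and 19.2, 17.4 and 17.3 CPM on day 5. Its partner Tipin had 75.7, 69.1 and 58.8 CPM in 005, 66.1, 68 and 75 CPM on day 2, and 19.6, 21.5 and 21.7 CPM on day 5. The pair parted on day 2, where Timeless was below every 005 library and Tipin was not. Both were called lower on day 5 against 005, at -2.55 ± 0.08 for Timeless and -1.68 ± 0.10 for Tipin.

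Among G1/S regulators, the E2F activators E2f1 and E2f2 differed. E2f2 had 18.9, 15.3 and 15.1 CPM in 005, 11.5, 17.4 and 11.8 CPM on day 2, and 1.25, 2.87 and 2.52 CPM on day 5. E2f1 had 29.1, 32.2 and 31.9 CPM in 005, 30.6, 33.8 and 34.5 CPM on day 2, and 16.4, 20.2 and 19.2 CPM on day 5. Both were lowest on day 5, with a deeper drop in E2f2. E2f2 fell by 2.87 ± 0.22 on day 5 against 005 (adjusted p = 2.4e-07, edgeR), and E2f1 at -0.73 ± 0.10 was not called (adjusted p = 4.4e-05). The cyclins that drive S-phase entry fell too, Ccne1 by 2.35 ± 0.16 and Ccne2 by 2.18 ± 0.21. On day 2 Ccne2 was at 164% of its 005 level, at 0.69 ± 0.20 (adjusted p = 0.019), under 2-fold.

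**Figure D3:**
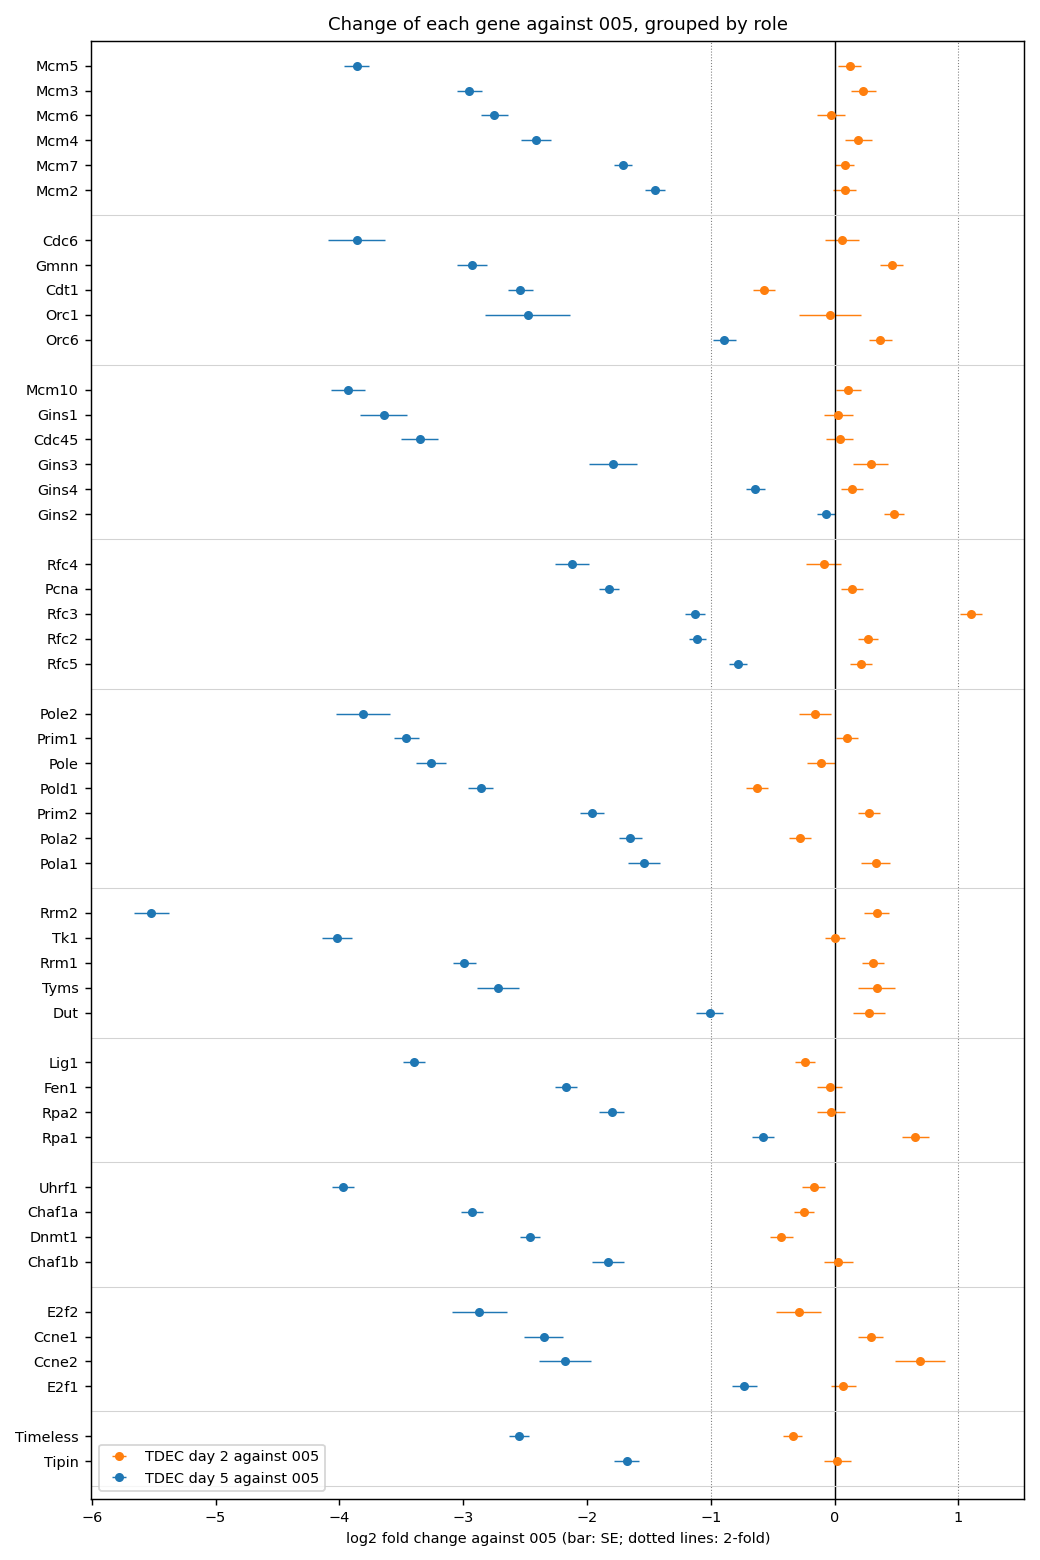
Log2 fold change against 005 for each of the 48 genes, with bars for the SE and dotted lines at a 2-fold change, for TDECs on day 2 (orange) and day 5 (blue), grouped by role. Only Rfc3 passes the right dotted line on day 2, while day 5 values run from -5.52 for Rrm2 to -0.07 for Gins2.

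Other cell cycle lists were read against the same shares of all genes on day 5 against 005, 10.4% called lower and 13.1% called higher. Of 33 other replication genes, 14 fell on day 5 against 005 and 1 rose, with a median of -0.85. Clspn, the adaptor of the replication checkpoint, fell by 4.36 ± 0.15, Asf1b, a histone chaperone, by 3.32 ± 0.16 and Dbf4, the activator of the Cdc7 kinase, by 2.12 ± 0.07. Pold4, the smallest subunit of polymerase delta, was the gene that rose (1.61 ± 0.18, adjusted p = 6.1e-06, edgeR). Of 14 other nucleotide supply genes, 7 fell and none rose, among them Dctpp1, which hydrolyses dCTP (-1.81 ± 0.08), and Samhd1, which breaks down deoxynucleotides (-1.56 ± 0.08). Of 22 G1 and Rb pathway genes, 9 fell and none rose. E2f8 and E2f7, repressor E2Fs that are themselves E2F targets, were both among those that fell, at -5.18 ± 0.15 for E2f8 and -3.43 ± 0.16 for E2f7. Of 30 G2 and mitosis genes, 29 fell, with a median of -4.01.

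CDK inhibitors went both ways on day 5 against 005, with 3 of 7 called higher, where 13.1% of all genes were, and 3 lower, where 10.4% were. Cdkn1a, which encodes p21, averaged 30.9 CPM in 005, 25.2 CPM on day 2 and 209 CPM on day 5 (2.77 ± 0.13, adjusted p = 2.1e-09, edgeR). Cdkn2b, which encodes p15, averaged 20.1 CPM in 005, 51.8 CPM on day 2 and 117 CPM on day 5 (2.56 ± 0.09, adjusted p = 1.4e-10). Cdkn2b was also called higher on day 2 against 005 (1.35 ± 0.12). The Cdkn2a row, which covers both INK4a and ARF products, rose by 1.6 ± 0.09. Cdkn2c fell by 1.69 ± 0.10 and Cdkn2d, another INK4 inhibitor of cyclin D kinases, fell by 1.6 ± 0.11. Cdkn1c at -1.13 ± 0.34 was near 1 CPM, and its call was lost without day 5 replicate 1. Among D cyclins, Ccnd2 rose on day 2 (1.51 ± 0.07), and Myc fell (-1.27 ± 0.08).

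Sertraline left the 48 genes low. None was called higher, where 1.82% of all genes were, and none lower, where 3.26% were (0 in each direction by DESeq2 too). At an unadjusted p under 0.05, 16 were higher and 5 lower with edgeR. Without the fold threshold, 14 of 48 were higher in sertraline TDECs than in untreated day 5 TDECs at an adjusted p under 0.05, against 17.6% of all genes, and 3 were lower, against 17.7%. The median log2 fold change was 0.12 for the 48 genes and 0 for all genes. Leaving out 1 library raised the number called higher to at most 2: Pole2 and Rrm2 without untreated replicate 2, Pole2 without sertraline replicate 2, and Pole2 and Cdc45 without sertraline replicate 3.

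The values that passed without the fold threshold were spread over roles. Cdt1 had 17.7, 14.7 and 14.7 CPM in sertraline TDECs, against 7.3, 8.62 and 8.63 CPM in untreated TDECs. Uhrf1 had 23.8, 19.4 and 20.5 CPM in sertraline TDECs, against 12.6, 12.9 and 12 CPM in untreated TDECs. For both, the treated libraries were all above the untreated ones, at 0.90 ± 0.13 for Cdt1 (adjusted p = 4.9e-05, edgeR) and 0.73 ± 0.11 for Uhrf1 (adjusted p = 8.2e-05). Ccne1 had 9.55, 9.99 and 9.7 CPM in sertraline TDECs, against 3.74, 6.24 and 6.27 CPM in untreated TDECs. Rfc3 had 38.9, 37.1 and 34.8 CPM in sertraline TDECs, against 26.5, 24.6 and 24.7 CPM in untreated TDECs. Neither overlapped between groups, with 0.81 ± 0.17 for Ccne1 (adjusted p = 0.0018) and 0.51 ± 0.08 for Rfc3 (adjusted p = 0.00015). In all, 19 of the 48 genes were higher with sertraline without overlap, where 26.8% of all genes were. A further 6 were lower without overlap, where 20.7% of all genes were. Chaf1a had 20.6, 19.8 and 21.4 CPM in sertraline TDECs, against 16.1, 14.5 and 12.9 CPM in untreated TDECs. Mcm3 had 32.6, 30.6 and 30.3 CPM in sertraline TDECs, against 20.3, 25.2 and 23.8 CPM in untreated TDECs. Rrm2 had 8.03, 7.53 and 6.66 CPM in sertraline TDECs, against 3.74, 5.34 and 3.5 CPM in untreated TDECs. These were likewise higher in all treated libraries, at 0.47 ± 0.11, 0.40 ± 0.09 and 0.78 ± 0.18, but Rrm2 stayed at 3.8% of its 005 level. Gins2 went the other way, with 29, 34.9 and 33.1 CPM in sertraline TDECs, against 45.8, 45.1 and 45.4 CPM in untreated TDECs (-0.53 ± 0.08, adjusted p = 9.5e-05). Its overlapping neighbour Gse1 was at -0.37 ± 0.06 in this comparison. Rfc5 (-0.32 ± 0.08) and Pola1 (-0.29 ± 0.09) were the other genes lower at an adjusted p under 0.05.

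The G2 and mitosis list had larger values in the same comparison, with 6 of 30 called higher, against 1.82% of all genes, at a median of 0.69. Without the fold threshold 28 of 30 were higher, against 17.6% of all genes. Cenpa, the centromere histone, averaged 21.6 CPM in sertraline TDECs and 9.28 CPM in untreated TDECs (1.18 ± 0.11, adjusted p = 7.4e-07, edgeR). Plk1, a mitotic kinase, averaged 7.91 CPM in sertraline TDECs and 3.55 CPM in untreated TDECs (1.12 ± 0.17). Ube2c was also called (1.02 ± 0.15), but its call was lost without sertraline replicate 1 or 2 or untreated replicate 1 (0.93 to 0.98). The median of this list and that of the 48 genes were not compared by a test. The repressor E2f8 rose by 1.54 ± 0.28, to 2.85 CPM in sertraline TDECs, against 0.955 CPM in untreated TDECs and 35.2 CPM in 005.

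**Figure D4:**
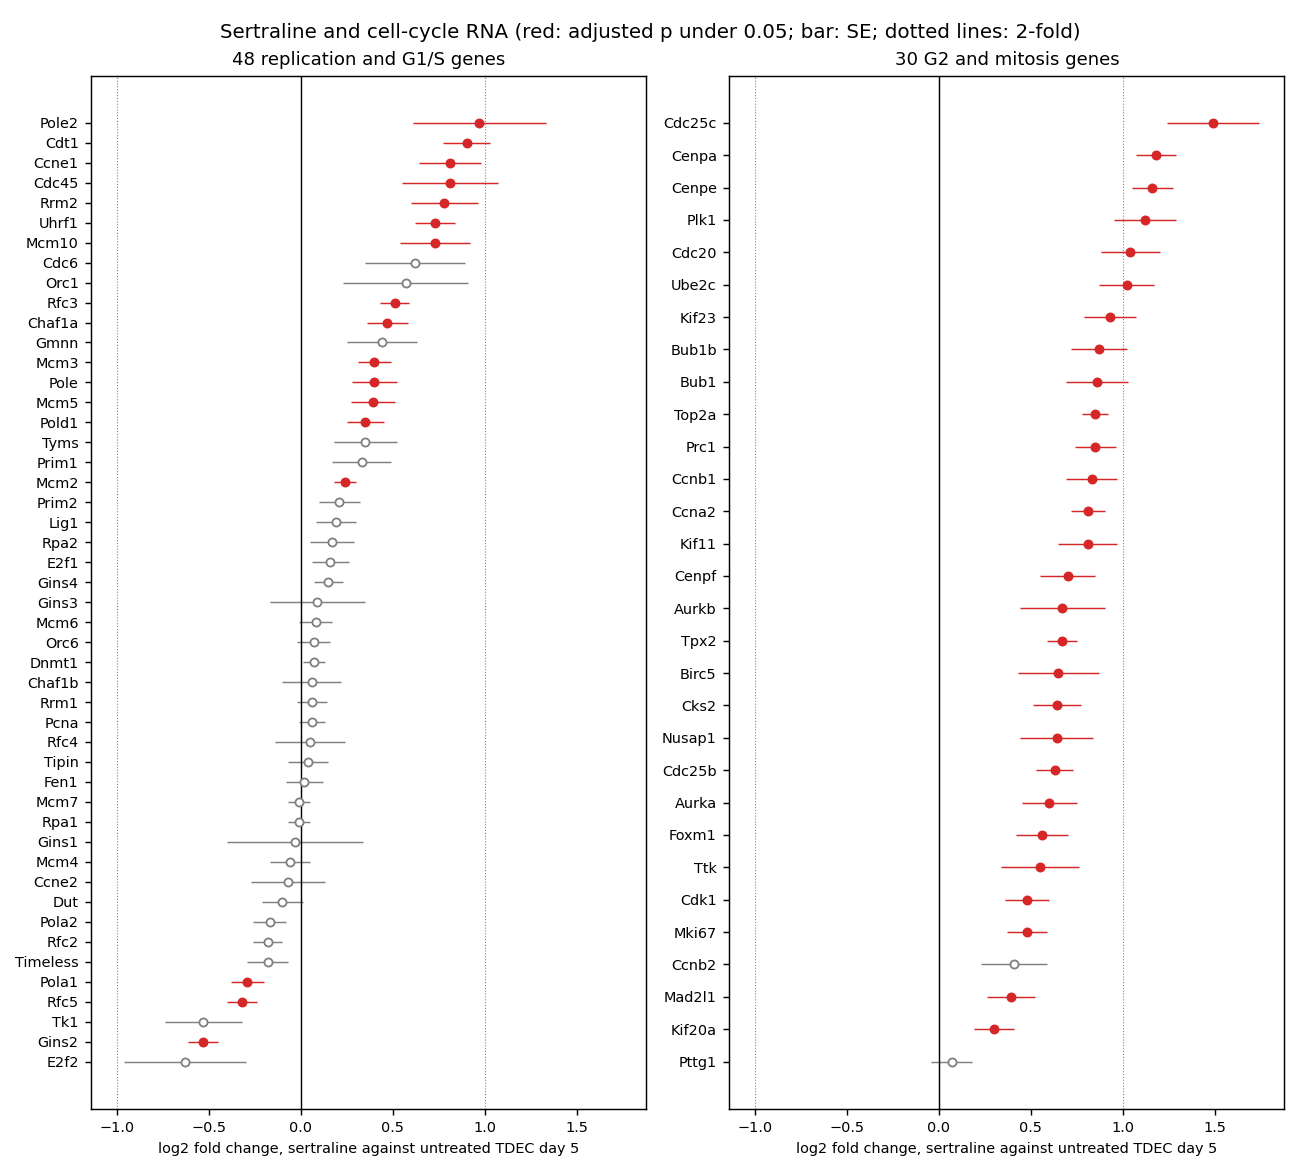
Log2 fold change of sertraline-treated against untreated day 5 TDECs for the 48 replication and G1/S genes (left) and 30 G2 and mitosis genes (right), with bars for the SE, red points where the adjusted p is under 0.05 and dotted lines at 2-fold. No replication gene passes a dotted line, while 6 mitotic genes pass the right one.

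Against MBMECs, nearly all of the 48 genes were called lower in day 5 TDECs, and few were called either way in 005 cells. On day 5, 44 of 48 were called lower than in MBMECs, against 20.8% of all genes, and 0 were called higher (28.1% of all genes, 0 by DESeq2 and 0 at an unadjusted p under 0.05), with a median of -2.55 for the 48 genes and 0.09 for all genes. The uncalled genes were Gins2 (-0.40 ± 0.07), Gins4 (-0.51 ± 0.08), Rfc3 (-0.78 ± 0.08) and E2f2 (-0.52 ± 0.26). In 005 against MBMECs, 1 was called higher, against 25.3% of all genes, and 2 lower, against 18.7%. Without the fold threshold, 11 were higher in 005 than in MBMECs, against 42.9% of all genes, and 21 were lower, against 36.9%. With libraries scaled by their totals these counts turned round, to 18 higher and 14 lower. The median was -0.12, but 0.10 when libraries were scaled by their totals, so no direction is given for the 48 genes together. These comparisons share the MBMEC libraries and differ from MBMECs in medium and cell origin as well.

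The genes called between 005 and MBMECs were E2f2, Tyms and Chaf1b. E2f2 had 18.9, 15.3 and 15.1 CPM in 005, against 2.78, 3.7 and 3.61 CPM in MBMECs (2.33 ± 0.17, adjusted p = 4.3e-08, edgeR). Tyms had 46.3, 46.2 and 33.7 CPM in 005, against 125, 122 and 124 CPM in MBMECs (-1.52 ± 0.10, adjusted p = 2.4e-08). Chaf1b had 28.7, 28.1 and 22.6 CPM in 005, against 58.8, 55.9 and 64.4 CPM in MBMECs (-1.14 ± 0.10, adjusted p = 3.3e-07), a call lost with scaling by totals (-0.93). None of the 3 overlapped between the groups, but neither did many genes: 42.3% of all genes were higher in 005 without overlap and 38.8% lower. On day 5, E2f2 had 1.25, 2.87 and 2.52 CPM in TDECs, against 2.78, 3.7 and 3.61 CPM in MBMECs (-0.52 ± 0.26, adjusted p = 0.069), and was not called. E2f1 averaged 18.6 CPM in day 5 TDECs and 59.3 CPM in MBMECs, and was called lower (-1.6 ± 0.08). Orc1 and Cdc45, each at -0.96 in 005 against MBMECs, became called lower without single libraries: Orc1 without 005 replicate 1 or 2 or MBMEC replicate 3 (-1.15 to -1.06), and Cdc45 without 005 replicate 2 (-1.01). The deepest difference on day 5 was again Rrm2, with 3.74, 5.34 and 3.5 CPM in day 5 TDECs, against 208, 225 and 212 CPM in MBMECs (-5.61 ± 0.09, adjusted p = 7.1e-29). Every MBMEC library was above every day 5 library by a wide margin.

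**Figure D5:**
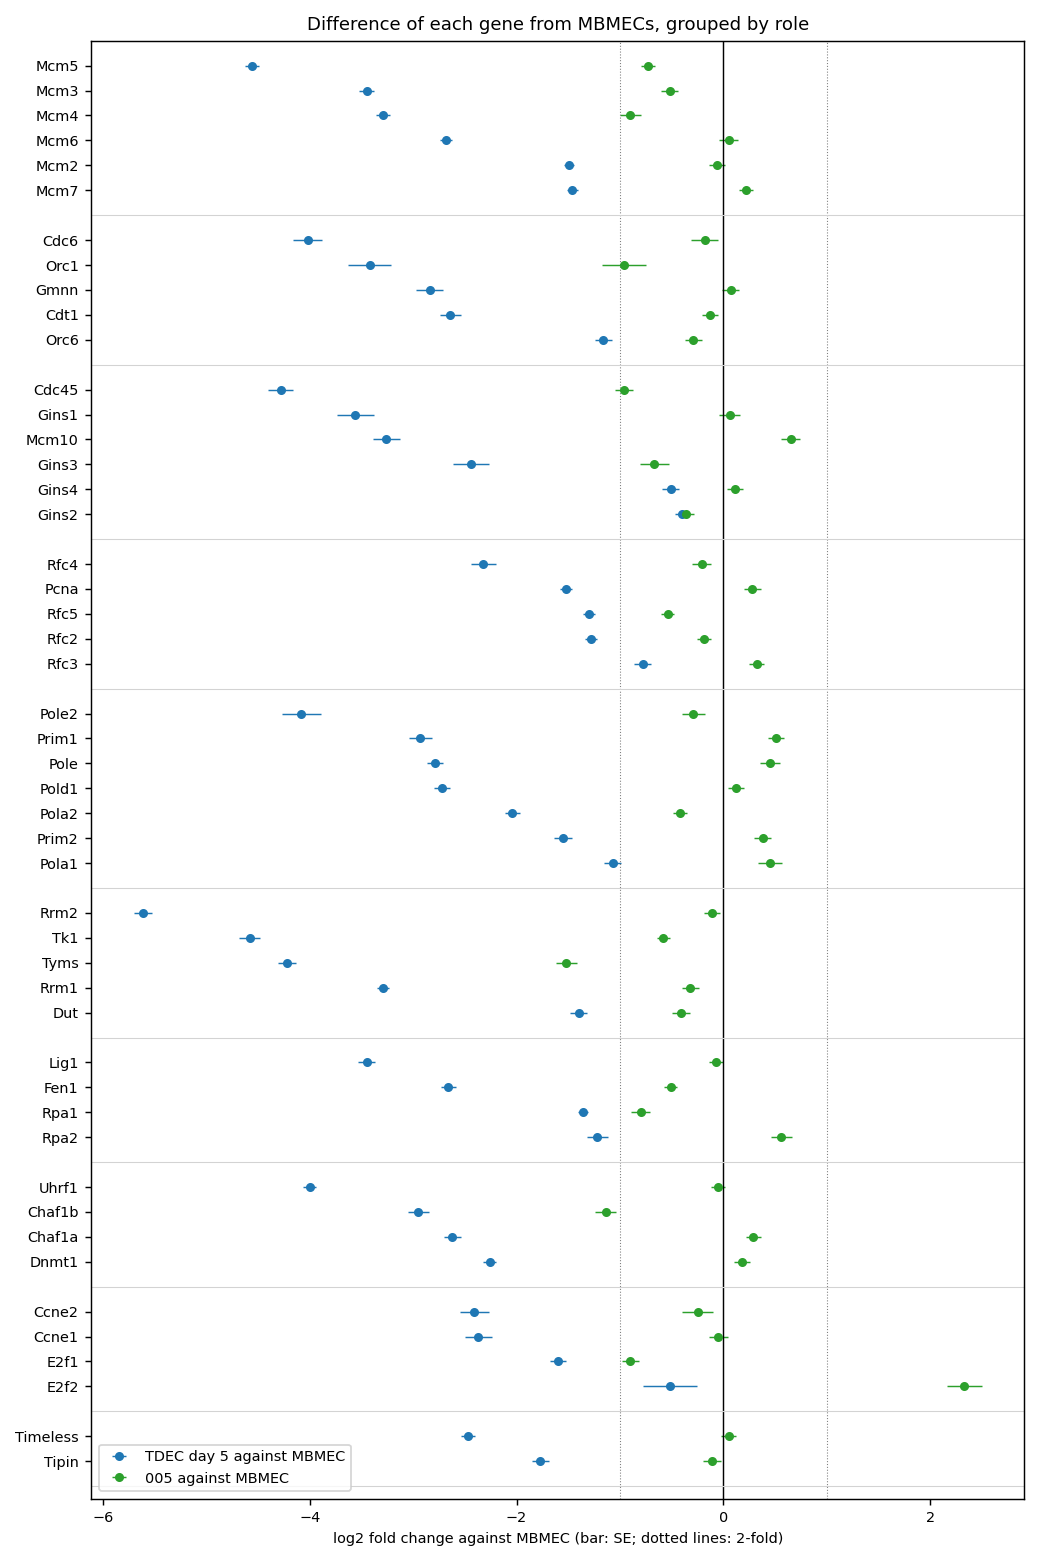
Log2 fold change against MBMECs for each of the 48 genes, with bars for the SE and dotted lines at 2-fold, for TDECs on day 5 (blue) and 005 cells (green), grouped by role. Blue points lie at -0.40 or below, while green points lie around 0 with E2f2 at 2.33 and Tyms at -1.52.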

How the data were processed

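Poly(A) RNA libraries were sequenced by the authors, and the deposited table holds whole-number counts of reads per gene, not normalized. Tools listed in the notes of the submitters were featureCounts 1.6.3, HISAT2 2.1.0, bcl2fastq 2.19 and Trimmomatic 0.38, and the build was mm10. The use of strand and the handling of multiply aligned reads are not given in the sources used here. Reads without molecular identifiers are not independent molecules, so fits cover the spread between libraries only. Counts of the 48 genes ran from 8 to 1055 on day 5 and from 63 to 5721 in 005.

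The 6 libraries of each comparison (9 for the difference of steps) were fitted with edgeR 4.0.16 in R 4.3.3 (TMM, filterByExpr with a minimum count of 10, two-sided quasi-likelihood test, Benjamini-Hochberg over all genes tested). Genes were called at an adjusted p under 0.05 and an absolute log2 fold change above 1, after the threshold of the study's methods. SE was taken as the log2 fold change divided by the root of F. CPM values were scaled over all 15 libraries. Alternatives were DESeq2 1.42.0, other scalings, no count filter, 1 fit of 15 libraries, no fold threshold, a replicate block and leaving out libraries. On simulated data, 90.6% of genes changed 2-fold reached an adjusted p under 0.05 in the design of day 5 against 005 and 89.2% in that of sertraline against untreated, before the fold threshold, which was not part of that check. For each role group, the genes with the largest and smallest change on day 5 against 005 were given in every library, with any gene called against the median's direction and the 8 with the smallest p under sertraline. From other lists, up to 4 called genes per direction were named by smallest p. Gse1, Tmem258 and Ubxn6 were named after their values were seen. The genes and lists were chosen with earlier results of these data known. No value column was left unmapped.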

Additional observations from a re-analysis of the deposited data

Results flagged for a closer look

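Rfc3, a small subunit of the clamp loader, moved in opposite directions in the steps of the time course: every day 2 library was above every 005 library, and every day 5 library was below every day 2 library. The later step minus the earlier one was -3.35 on the log2 scale (SE 0.13, adjusted p = 4.6e-11, edgeR quasi-likelihood test), and it was -3.2 without the libraries that stand apart. Day 2 libraries serve in both steps, and their part in the size of the difference was not tested.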

How the results depend on the processing

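The direction of the 48 genes on day 5 against 005, day 2 and MBMECs was the same under every alternative run, with 41 to 42, 44 to 45 and 44 called lower when 1 library was left out. Scaling by library totals gave a median of -2.57 on day 5 against 005, -2.49 on day 5 against MBMECs and 0.19 with sertraline, where it called 1 gene higher (Pole2). In 005 against MBMECs it turned the median to 0.10 and left 1 gene called lower. That scaling shifted the median of all genes to -0.14 on day 5 against 005 and 0.30 in 005 against MBMECs, against -0.01 and 0.09 with TMM. The cause was not tested.

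Leaving out 1 library gave medians of -2.52 to -2.31 on day 5 against 005, -2.60 to -2.55 on day 5 against MBMECs and -2.52 to -2.26 for the difference of steps, 0 to 2 genes called higher with sertraline and 2 to 4 called lower in 005 against MBMECs. Without the libraries that stand apart, chosen after seeing the data, the median on day 5 against 005 was -2.52 and 1 gene was called higher with sertraline.

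Without a fold threshold, by construction, the 48 genes gave 11 higher and 7 lower on day 2 against 005, 14 and 3 with sertraline, and 11 and 21 in 005 against MBMECs, where scaling by library totals gave 18 and 14. On day 2 against 005, leaving out 1 library gave 8 to 11 higher and 4 to 9 lower. Over all genes the counts became 2882 higher and 3095 lower on day 2 against 005, 4812 and 4954 on day 5 against day 2, 5068 and 5163 on day 5 against 005, 2738 and 2751 with sertraline, 7368 and 6482 on day 5 against MBMECs, 6857 and 5894 in 005 against MBMECs, and 3977 and 4513 for the difference of steps.

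Replicate numbers did not pair the libraries (correlations of deviations -0.09 to 0.07 for same numbers, -0.10 to 0.14 for different ones). With the replicate block, 42 genes were called lower on day 5 against 005 and no count of called genes among the 48 changed, while without a fold threshold the block gave 7 higher and 4 lower on day 2 against 005. On day 5, Orc1, Gins1 and Pole2 were near 1 CPM, where counting noise widens the errors.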

Other observations

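Genes of the replication checkpoint and of repair at forks were also lower on day 5. Of 19 such genes, 15 fell on day 5 against 005, where 10.4% of all genes tested fell, and none rose, with a median log2 fold change of -1.58. Exo1, an exonuclease of mismatch repair and end resection, fell by 3.90 ± 0.15 (adjusted p = 3.3e-10, edgeR quasi-likelihood test), Brca1 by 3.80 ± 0.18, Fancd2, of the Fanconi anemia pathway, by 3.17 ± 0.13 and Bard1, the partner of Brca1, by 3.04 ± 0.12. In 005 against MBMECs, 4 of the 19 were called higher, which is not above the 25.3% of all genes. Among them were Exo1 (1.19 ± 0.11), Ung, which removes uracil from DNA (1.02 ± 0.08), and the checkpoint kinase Chek1 (1.02 ± 0.10). The Chek1 call was lost without 005 replicate 1 or 2 (0.99 and 0.97), without MBMEC replicate 1 or with no filter on low counts. The call of the fourth, Atrip, the partner of the checkpoint kinase Atr, near 1 CPM in 005 (1.40 ± 0.50), was lost without 005 replicate 2 or MBMEC replicate 2 or 3 (1.02 to 1.29).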
